A study of Mus musculus with 12 samples.

Results

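The genes described here are the ATP-binding cassette (ABC) transporter family of the mouse. They were taken as every gene whose symbol is Abc followed by a subfamily letter from a to g and a number, where the symbol came from the RefSeq accession of a probe on the array. This gave 49 genes of the 18535 genes with a symbol, with 15 members in subfamily A, 10 in B, 10 in C, 4 in D, 1 in E, 3 in F and 6 in G. One further RefSeq gene with such a symbol, Abca16, was not analysed here.

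RNA was measured on 12 one-colour oligonucleotide arrays, 3 in each of 4 groups, from distal colorectal epithelial tissue of mice (female, BALB/c) that were 5 to 7 weeks old at the start, collected on day 100. The AOM/DSS group received 1 injection of azoxymethane (AOM, a colon carcinogen) at 12.5 mg/kg and 3 cycles of dextran sulfate sodium (DSS, which injures the colon lining), given for 5 days in each 21, and its arrays hold clipped neoplasms. The AOM group received 6 weekly injections of AOM at 10 mg/kg, the DSS group the same DSS cycles without AOM, and the control group neither; their arrays hold epithelium scraped off the colon wall. Disease, dissection, storage solution and AOM dose therefore cannot be told apart between AOM/DSS and the other groups, and it is not stated that replicates come from different animals, so the spread between them may be technical.

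ABC proteins bind and hydrolyse ATP. Most use it to move substrates across membranes, as exporters of drugs and conjugates, of sterols and phospholipids or of bile salts, as carriers in mitochondria, peroxisomes and lysosomes, or as regulators of potassium channels. Members of subfamilies E and F have no membrane domain and act on ribosomes. In the intestine, P-glycoprotein (encoded by Abcb1a and Abcb1b in mice) and Abcg2 sit on the luminal side of absorptive cells and return foreign compounds to the gut lumen, whereas Abcc1 and Abcc3 export to the blood side.

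All levels below are log2 processed intensity minus the array's own 75th percentile, so that 0 is the 75th percentile of that array, and values of different genes are not comparable because each probe binds differently. A difference is the first group's mean minus the second's, with its standard error (SE) from a limma fit to all 12 arrays. A gene is said to have risen or fallen only where the adjusted p, by Benjamini-Hochberg over all 18950 genes tested, was under 0.05. In bulk tissue, fewer cells of a type and less RNA per cell cannot be told apart.

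The array's detection flag, well above background, was set on all 12 arrays for 26 of the 49 members, on 1 to 11 arrays for 17 and on no array for 6. Testing needed a probe with that flag on every array in 1 or more of the groups, and 32 members met this: 5 of 15 in subfamily A, 9 of 10 in B, 7 of 10 in C, 3 of 4 in D, the 1 member of E, all 3 of F and 4 of 6 in G. The 17 members not tested were Abca4, Abca6, Abca8a, Abca8b, Abca9, Abca12, Abca13, Abca14, Abca15, Abca17, Abcb5, Abcc6, Abcc10, Abcc12, Abcd2, Abcg3 and Abcg8. Abca8b, Abca8a, Abca9, Abca6 and Abca5 are neighbours on chromosome 11 with no protein-coding gene between them, and of these only Abca5 was tested. Abcg8, which forms the intestinal sterol exporter with its chromosome 17 neighbour Abcg5, was well above background on AOM/DSS replicate 2 and control replicate 1 and on no other array. Abcg8 measured -6.29, -5.03 and -5.25 in AOM/DSS, -5.69, -5.72 and -6.37 in AOM, -6.02, -5.42 and -5.97 in DSS and -2.84, -5.30 and -6.18 in control. Abcd2, a peroxisomal fatty acid carrier, was so on AOM/DSS replicate 2, AOM replicate 2 and control replicate 1. Abcd2 stood at -7.15, -5.0 and -5.57 in AOM/DSS, -4.53, -3.84 and -6.27 in AOM, -6.42, -5.14 and -5.96 in DSS and -3.20, -6.01 and -5.58 in control. For both, control replicate 1 was the brightest array. Passing the filter only through groups where a member is bright favours a difference there but does not force one. The probes used for Abcc2 and Abcc9 passed only through AOM/DSS, and that for Abcb11 only through AOM and DSS.

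**Figure D1:**
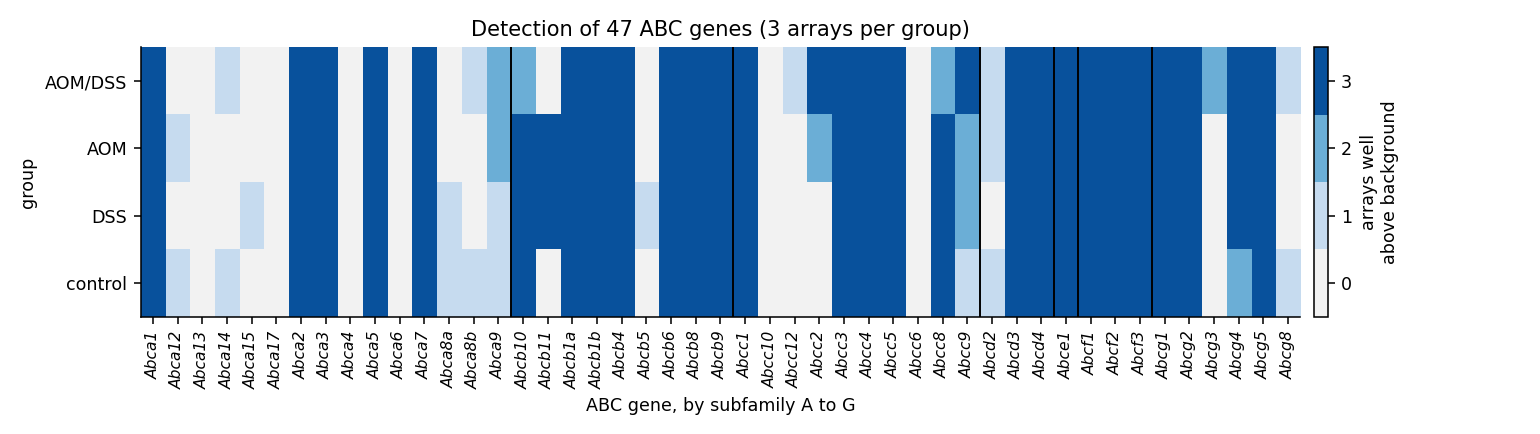
Number of arrays, of 3 in each group, on which each of 47 of the 49 ABC genes was well above background (colour, 0 to 3), with genes in columns by subfamily A to G and groups in rows. Of these, 24 are dark in all 4 groups, and most pale columns lie in subfamily A, of which 5 of 15 genes were tested.

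Abcb1a, Abcb1b and Abcb4 are neighbours on mouse chromosome 5 with no protein-coding gene between them. They are shown with their promoters because they were the members whose levels were ordered across all 4 groups. Abcc2 is shown as the member that rose most in the neoplasms. RefSeq promoters were given for 37 of the 49 members. The sequences are the bases before the transcript start from RefSeq (GRCm38.p6, plus strand, 5′ to 3′), 250 for 3 of them and, for Abcb4, the 143 that precede the annotated gene. Capitals mark matches, on either strand, to 7 short motifs that were searched: the E-box CACGTG, the motif CTTTGA that TCF and LEF factors of the Wnt pathway bind, the GC box GGGCGG, the CCAAT motif, the AP-1 motif TGANTCA, the antioxidant response motif TGACNNNGC and the core promoter motif TATAAA.
Abcb1a, chr5:8566841-8567090: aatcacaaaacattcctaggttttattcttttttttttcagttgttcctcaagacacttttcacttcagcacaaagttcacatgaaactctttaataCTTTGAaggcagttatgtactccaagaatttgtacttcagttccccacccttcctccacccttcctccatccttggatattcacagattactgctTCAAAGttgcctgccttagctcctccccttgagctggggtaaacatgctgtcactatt
Abcb1b, chr5:8797897-8798146: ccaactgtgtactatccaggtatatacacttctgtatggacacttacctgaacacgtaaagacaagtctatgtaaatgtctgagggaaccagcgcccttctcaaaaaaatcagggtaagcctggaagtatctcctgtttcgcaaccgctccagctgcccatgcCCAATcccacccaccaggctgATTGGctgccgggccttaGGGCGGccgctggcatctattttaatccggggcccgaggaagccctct
Abcb4, chr5:8893471-8893613: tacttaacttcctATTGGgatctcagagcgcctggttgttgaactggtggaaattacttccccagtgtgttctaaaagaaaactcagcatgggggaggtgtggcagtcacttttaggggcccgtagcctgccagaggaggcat
Abcc2, chr19:43782058-43782307: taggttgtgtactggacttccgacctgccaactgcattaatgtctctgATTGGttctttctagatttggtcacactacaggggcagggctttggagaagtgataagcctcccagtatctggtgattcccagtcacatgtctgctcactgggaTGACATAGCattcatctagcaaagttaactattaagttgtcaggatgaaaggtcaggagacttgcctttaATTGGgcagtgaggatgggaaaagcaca

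The Abcb1a promoter held 2 matches to CTTTGA, its closest paralogue Abcb1b held a GGGCGG and 2 matches to CCAAT, and the printed Abcb4 bases held 1 match to CCAAT, while the rest of its 250-base window, inside the annotated gene and not printed, held a GGGCGG. The Abcc2 promoter held 2 matches to CCAAT and 1 to TGACNNNGC. No matches overlapped in these sequences. Among 32851 RefSeq promoters of 250 bases, CTTTGA occurred in 13.8%, CCAAT in 33.9%, GGGCGG in 32.7%, TGACNNNGC in 10.2%, TATAAA in 12.4%, TGANTCA in 6.75% and CACGTG in 6.02%. A match describes letters and is not a binding site. None of the 7 motifs occurred in all 3 printed sequences from chromosome 5.

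In AOM/DSS neoplasms against control epithelium, 8 of the 32 tested members rose and 11 fell, while 13 did not pass. The background was 17.3% higher and 17.5% lower among all genes tested (3270 and 3310 genes; 2276 and 3541 when arrays were scaled to their median instead), and 19.3% higher and 20.0% lower among genes with a symbol, as all members have. The members' median difference was -0.26, and that of all genes 0.03. Values did not overlap between the groups for 18 of the 19 members called, the exception being Abcg4; among all genes called in this comparison 97.6% did not overlap. The exporters of drugs and conjugates moved in both directions: of 9 members in this role, 8 were tested, and 4 rose (Abcc1, Abcc2, Abcc4 and Abcc5) while 4 fell (Abcb1a, Abcb1b, Abcc3 and Abcg2).

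**Figure D2:**
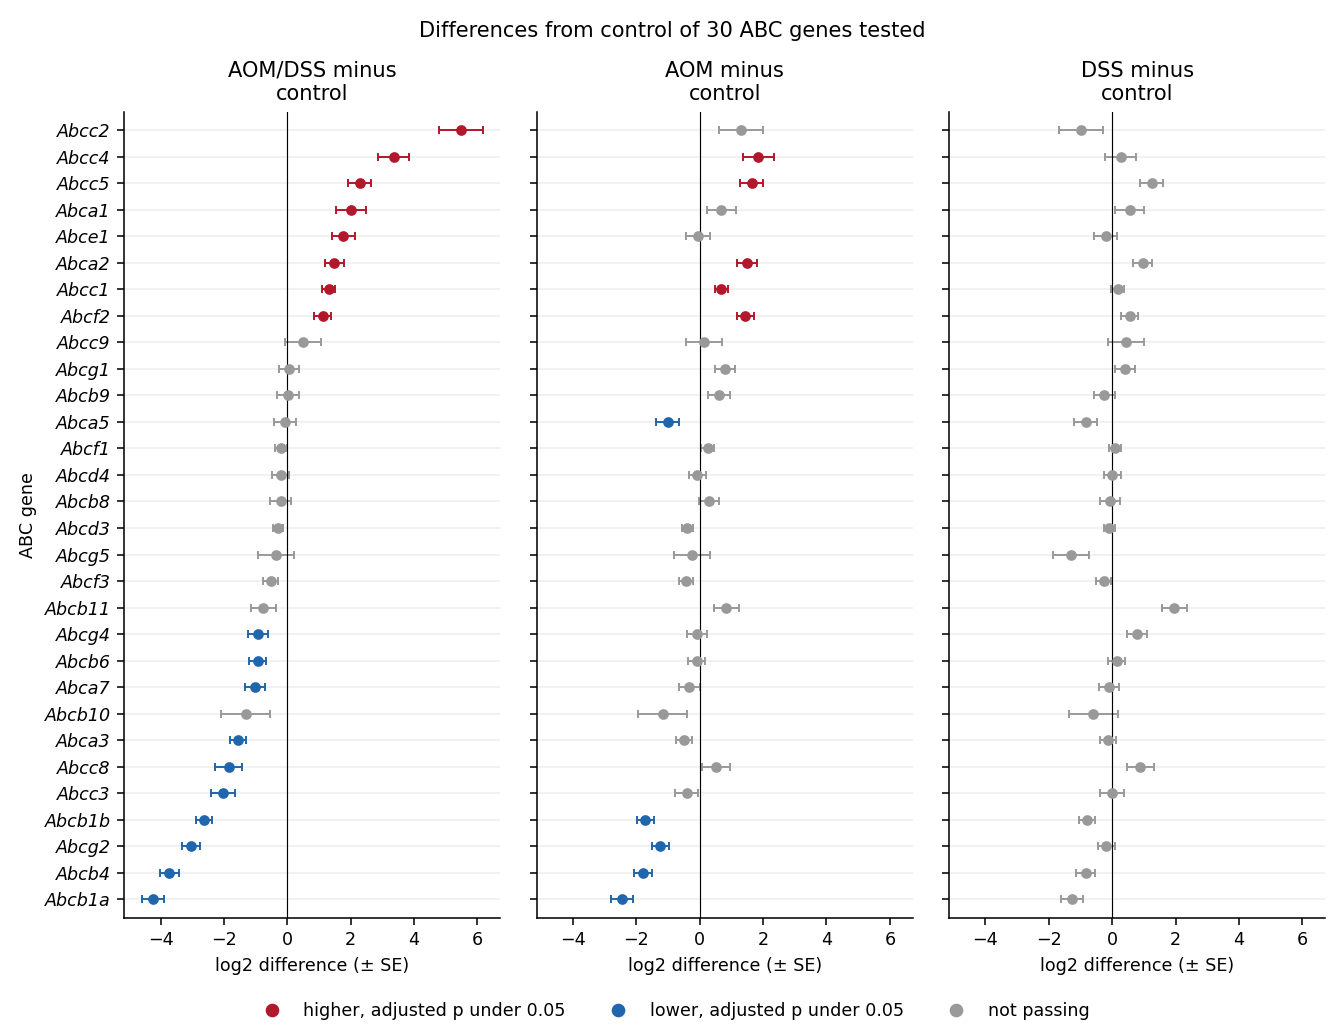
Log2 difference from control (horizontal axis, point with SE bar) of 30 of the 32 ABC genes tested, ordered by the AOM/DSS difference, for AOM/DSS (left), AOM (middle) and DSS (right), with n = 3 arrays per group. Red and blue mark members higher or lower at an adjusted p under 0.05, among the genes drawn: 8 and 10 in AOM/DSS, 5 and 5 in AOM, and 0 in DSS.

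The largest fall was in Abcb1a, 1 of the 2 mouse genes for P-glycoprotein. Levels of Abcb1a were -1.97, -3.25 and -2.39 on AOM/DSS arrays, -0.45, -1.40 and -0.39 on AOM, 0.38, 0.42 and 0.54 on DSS and 1.90, 1.48 and 1.75 on control arrays. Every AOM/DSS value lay below every AOM value, every AOM value below every DSS value, and every DSS value below every control value. AOM/DSS neoplasms minus control was -4.25 ± 0.35 (SE, adjusted p = 3.4e-05), or 19.1-fold lower. Abcb1b, the other P-glycoprotein gene, had the same order without overlap. The Abcb1b level was -0.38, -1.16 and -0.29 on AOM/DSS arrays, 0.49, 0.23 and 0.18 on AOM, 1.14, 1.20 and 1.34 on DSS and 2.35, 1.76 and 1.94 on control arrays. The Abcb1b difference from control was -2.62 ± 0.26 (SE, adjusted p = 8.54e-05). A second probe for Abcb1b gave a difference of -2.94. Another, well above background on only 2 arrays, gave the opposite sign, 1.23. Abcb4, which flips phosphatidylcholine into bile in the liver, had that order as well. Abcb4 measured 0.85, -0.27 and 0.09 in AOM/DSS, 2.44, 1.97 and 2.08 in AOM, 3.02, 3.03 and 3.29 in DSS and 4.30, 3.72 and 3.83 in control. Abcb4 differed from control by -3.73 ± 0.29 (SE, adjusted p = 2.93e-05). These were the 3 of 32 members with their groups in the order AOM/DSS, AOM, DSS, control from lowest to highest and no overlap, against 0.586% of all genes tested. No member had the reverse order, which 0.158% of all genes had. The 3 genes have similar sequences, and how far their probes bind each other's transcripts was not tested.

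**Figure D3:**
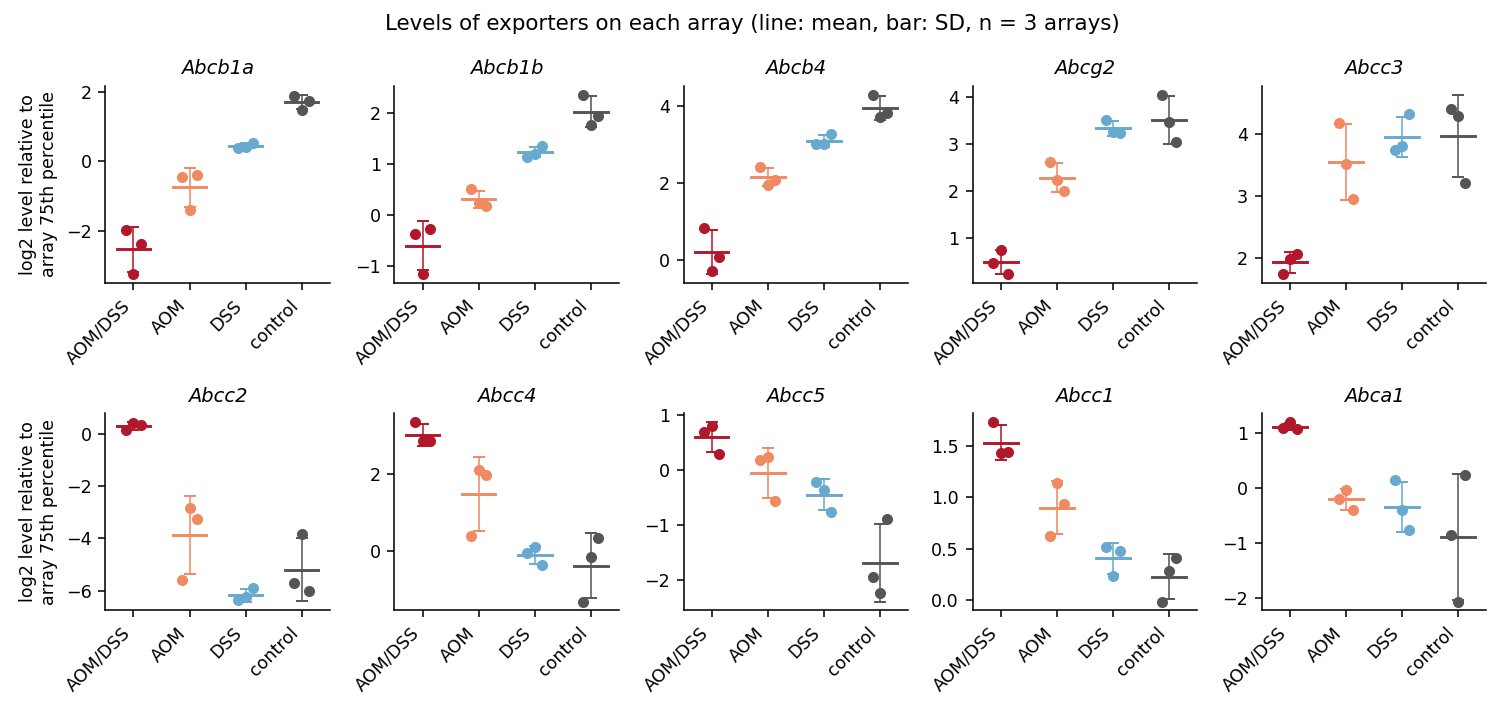
Level of 10 exporters on each array (vertical axis, log2 relative to the array's 75th percentile, scale differing by panel), for AOM/DSS, AOM, DSS and control from left to right. Points are arrays, lines are means and bars are SD (n = 3 arrays per group). The upper panels hold 5 genes that fell in AOM/DSS, of which Abcb1a, Abcb1b and Abcb4 lie lowest in AOM/DSS, then in AOM, DSS and control without overlap, and the lower panels hold 5 that rose.

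Abcg2, the breast cancer resistance protein, fell as well. Abcg2 stood at 0.47, 0.75 and 0.24 in AOM/DSS, 2.61, 2.24 and 1.99 in AOM, 3.53, 3.26 and 3.24 in DSS and 4.06, 3.47 and 3.04 in control. The AOM/DSS arrays were lowest and the AOM arrays next, whereas the DSS and control ranges overlapped. Against control, Abcg2 differed by -3.04 ± 0.28 (SE, adjusted p = 5.87e-05), and its second probe gave -2.70. Abcc3, which carries bile salts and glucuronides to the blood side, was low in the neoplasms. Levels of Abcc3 were 1.75, 1.99 and 2.07 on AOM/DSS arrays, 4.18, 3.53 and 2.96 on AOM, 3.74, 3.81 and 4.33 on DSS and 4.41, 4.30 and 3.21 on control arrays. The AOM, DSS and control ranges overlapped, and the AOM/DSS range lay below all of them. In AOM/DSS against control, Abcc3 differed by -2.04 ± 0.37 (SE, adjusted p = 0.00245).

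Abcc2, which exports conjugates such as glucuronides on the luminal side, had the largest rise. The Abcc2 level was 0.14, 0.42 and 0.31 on AOM/DSS arrays, -5.59, -2.83 and -3.24 on AOM, -6.36, -6.25 and -5.89 on DSS and -5.72, -3.83 and -6.02 on control arrays. It was well above background on all 3 AOM/DSS arrays and 2 of 3 AOM arrays (replicate 1 was dim), and on no DSS or control array. The Abcc2 difference from control was 5.48 ± 0.70 (SE, adjusted p = 0.000325). With each dim control array set at the lowest signal well above background there (or its own, if higher), the rise was at least 18.2-fold. With normexp background correction it was 1.87 on the log2 scale and did not pass (adjusted p = 0.103). Abcc4, an exporter of cyclic nucleotides and prostaglandins, rose too. Abcc4 measured 3.32, 2.83 and 2.84 in AOM/DSS, 0.39, 2.09 and 1.95 in AOM, -0.04, 0.12 and -0.34 in DSS and -1.29, -0.15 and 0.34 in control. The AOM/DSS arrays were highest, and AOM replicate 1 lay well below the other AOM arrays. Abcc4 differed from control by 3.36 ± 0.49 (SE, adjusted p = 0.000682), with 3.80 from a second probe that was well above background on 8 of 12 arrays.

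Abcc5, another cyclic nucleotide exporter, had no overlap between AOM/DSS and control. Abcc5 stood at 0.69, 0.81 and 0.29 in AOM/DSS, 0.18, 0.24 and -0.57 in AOM, -0.23, -0.36 and -0.77 in DSS and -1.95, -2.24 and -0.90 in control. Against control, Abcc5 differed by 2.29 ± 0.36 (SE, adjusted p = 0.00106), and its other probes, well above background on 5 and 3 of 12 arrays, gave 2.73 and 2.13. Abcc1, which exports glutathione conjugates and leukotriene C4, rose by less. Levels of Abcc1 were 1.73, 1.43 and 1.44 on AOM/DSS arrays, 0.62, 1.14 and 0.94 on AOM, 0.52, 0.23 and 0.47 on DSS and -0.02, 0.28 and 0.41 on control arrays. In AOM/DSS against control, Abcc1 differed by 1.31 ± 0.21 (SE, adjusted p = 0.00113), and its other probes gave 1.15 and 0.94. Abcc10, a further drug exporter, was not tested, since no array had it above background.

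Among 10 exporters of cholesterol, phospholipid and other lipids, 8 were tested, of which 2 rose (Abca1 and Abca2) and 4 fell (Abcb4, Abca3, Abca7 and Abcg4). Abca1 loads cholesterol onto apolipoprotein A-I. The Abca1 level was 1.08, 1.18 and 1.07 on AOM/DSS arrays, -0.20, -0.03 and -0.39 on AOM, 0.14, -0.41 and -0.76 on DSS and -0.86, -2.05 and 0.23 on control arrays. Control replicate 2 was the lowest array and control replicate 3 the highest of its group, yet all controls lay below the neoplasms. The Abca1 difference from control was 2.00 ± 0.46 (SE, adjusted p = 0.00784). Abca2, a lipid carrier of endosomes and lysosomes, was lowest in control. Abca2 measured -0.74, -0.24 and -1.11 in AOM/DSS, -0.28, -0.61 and -1.16 in AOM, -1.44, -0.98 and -1.21 in DSS and -2.53, -2.16 and -1.84 in control. Abca2 differed from control by 1.48 ± 0.30 (SE, adjusted p = 0.0043), and a second probe gave 1.47, but with normexp correction the difference was 0.28 (adjusted p = 0.622) and did not pass.

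Abcg1, which exports cholesterol to high-density lipoprotein, and Abcg5, the partner of Abcg8, did not pass in that comparison. Abcg1 stood at 0.57, 1.35 and 0.71 in AOM/DSS, 1.90, 1.44 and 1.55 in AOM, 1.21, 1.09 and 1.41 in DSS and 1.22, 0.14 and 1.14 in control. Against control, Abcg1 differed by 0.04 ± 0.32 (SE, adjusted p = 0.937), with a 95% interval of -0.66 to 0.74. Levels of Abcg5 were 0.17, 1.40 and 1.0 on AOM/DSS arrays, 0.12, 1.46 and 1.37 on AOM, 1.24, -0.89 and -0.55 on DSS and 1.66, 1.03 and 0.97 on control arrays. DSS replicates 2 and 3 were below all other Abcg5 arrays, and the 95% interval for AOM/DSS minus control was -1.62 to 0.90. Abca3, a lipid carrier known from lung surfactant, differed by -1.57 ± 0.25 (SE, adjusted p = 0.00115) and Abca7 by -1.03 ± 0.32 (adjusted p = 0.0305). Abcg4 differed by -0.91 ± 0.31 (adjusted p = 0.0424), with means of -4.26 in AOM/DSS and -3.34 in control. The lowest signal well above background was -5.25 to -4.89 on AOM/DSS arrays and -4.08 to -3.77 on control arrays. The 6 members well above background on no array also measured lower in AOM/DSS, by differences of -1.97 (Abca13) to -0.29 (Abca4). The part of such an offset in the Abcg4 difference was not tested.

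The 2 potassium channel regulators are the sulfonylurea receptors Abcc8 and Abcc9. Abcc8, known from insulin-secreting and other endocrine cells, fell. The Abcc8 level was -3.97, -3.55 and -5.20 on AOM/DSS arrays, -1.15, -2.25 and -2.26 on AOM, -1.40, -1.80 and -1.32 on DSS and -2.17, -2.25 and -2.76 on control arrays. The neoplasms were lowest, and AOM/DSS replicate 3 was not well above background. In AOM/DSS against control, Abcc8 differed by -1.85 ± 0.43 (SE, adjusted p = 0.00815). Markers of enteroendocrine cells moved with it: 6 of 7 tested fell, with a summed signal, relative to the 75th percentile, of 3.54 to 11.8 on AOM/DSS, 118 to 228 on AOM, 184 to 289 on DSS and 129.7 to 197 on control arrays, and their part in the result was not tested. Abcc9, known from vascular smooth muscle, was well above background on 8 of 12 arrays and did not pass. Abcc9 measured -4.0, -3.63 and -4.47 in AOM/DSS, -3.75, -4.28 and -5.16 in AOM, -3.61, -3.51 and -5.20 in DSS and -4.66, -5.39 and -3.58 in control. The Abcc9 difference from control was 0.51 ± 0.57 (SE, adjusted p = 0.527). Its other probes, well above background on 7 and 5 of 12 arrays, gave 1.45 and 0.30, so the size depended on the probe. Kcnj8, a channel pore that pairs with Abcc9, differed by 0.07 ± 0.36 (SE, adjusted p = 0.891), and Kcnj11, the pore that pairs with Abcc8, lacked the detection flag throughout.

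Of the 4 ATPases of translation, Abce1 and Abcf2 rose. Abce1 splits ribosomes after termination. Abce1 stood at 2.90, 2.79 and 3.09 in AOM/DSS, 0.49, 1.18 and 1.63 in AOM, 1.31, 0.89 and 0.64 in DSS and 0.39, 1.39 and 1.68 in control. All 3 AOM/DSS arrays lay above every other array. Abce1 differed from control by 1.77 ± 0.37 (SE, adjusted p = 0.00493), whereas its second probe gave 0.48, so the size depended on the probe. Abcf2, an ATPase of the ribosome-associated kind, was low in control and on DSS replicate 1. Levels of Abcf2 were 1.28, 1.26 and 1.15 on AOM/DSS arrays, 1.23, 1.77 and 1.68 on AOM, 0.07, 1.11 and 0.85 on DSS and -0.03, 0.15 and 0.24 on control arrays. Against control, Abcf2 differed by 1.11 ± 0.27 (SE, adjusted p = 0.00963). Abcf1, which acts in translation initiation, did not pass. The Abcf1 level was 3.40, 3.51 and 3.31 on AOM/DSS arrays, 3.75, 3.70 and 4.10 on AOM, 3.45, 3.83 and 3.77 on DSS and 3.59, 3.74 and 3.48 on control arrays. In AOM/DSS against control, Abcf1 differed by -0.20 ± 0.19 (SE, adjusted p = 0.461), with a 95% interval of -0.62 to 0.23. Abcf3 did not pass either, at -0.52 ± 0.23 (SE, adjusted p = 0.101), and its second probe had the opposite sign, 0.24.

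Of the mitochondrial transporters, Abcb6, a porphyrin carrier, fell by 0.94 on the log2 scale (SE 0.26, adjusted p = 0.0196). Abcb8 differed by -0.21 ± 0.32 (SE, adjusted p = 0.643). Abcb10 differed by -1.31 ± 0.77 (SE, adjusted p = 0.213) and was dim on AOM/DSS replicate 3, at -4.98 against -1.80 and -1.51 on the other neoplasm arrays.

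Abcd3, a peroxisomal carrier that imports branched fatty acids and bile acid precursors, did not pass. Abcd3 measured 3.93, 3.89 and 3.93 in AOM/DSS, 3.74, 3.87 and 3.85 in AOM, 4.24, 4.15 and 3.99 in DSS and 4.24, 4.34 and 4.06 in control. The Abcd3 difference from control was -0.30 ± 0.17 (SE, adjusted p = 0.187), and its other probes gave -0.26 and, with the opposite sign, 0.15. The lysosomal members Abcb9, a peptide carrier, and Abcd4, needed for vitamin B12 release, did not pass, at 0.01 ± 0.34 and -0.21 ± 0.27 (SE). Abcb11, the bile salt export pump, differed by -0.76 ± 0.40 (SE, adjusted p = 0.16) and lacked the detection flag on every array of both groups. Abca5 differed by -0.07 ± 0.35 (SE, adjusted p = 0.898).

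Among 25 alternative settings, of which leaving out the arrays high in pancreatic or low in stromal markers was chosen after seeing the data, the calls of Abcb1a, Abcb1b, Abcb4, Abcc4 and Abcg2 in AOM/DSS against control held in every one. The arrays lay on 3 slides, and slide 3 held AOM/DSS replicate 3 with the 3 controls. With slide as a block 13 members were called. Among those that no longer passed were Abca1, Abca2, Abca7, Abcb6, Abcf2 and Abcg4. Abcb10 gained a call at -3.53, a value that rests on AOM/DSS replicate 3, where Abcb10 was dim. Over all genes, 11.7% were called with the block. Within slide 3, which sets 1 AOM/DSS array against the 3 controls, Abcb1a differed by -4.10, Abcb1b by -2.30, Abcb4 by -3.86, Abcg2 by -3.28 and Abcc4 by 3.21; the sign there was fixed by the lack of overlap between the groups. With normexp correction the calls of Abca2, Abca7 (-0.36, adjusted p = 0.517) and Abcb6 (-0.58, adjusted p = 0.199) were lost, and Abcc5 was at 1.21. The call of Abca7 was also lost without any 1 of the 3 AOM/DSS replicates or without control replicate 1 or 2, and that of Abcb6 without AOM/DSS replicate 1 or control replicate 2; Abcg4 lost its call in 13 alternatives.

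**Figure D4:**
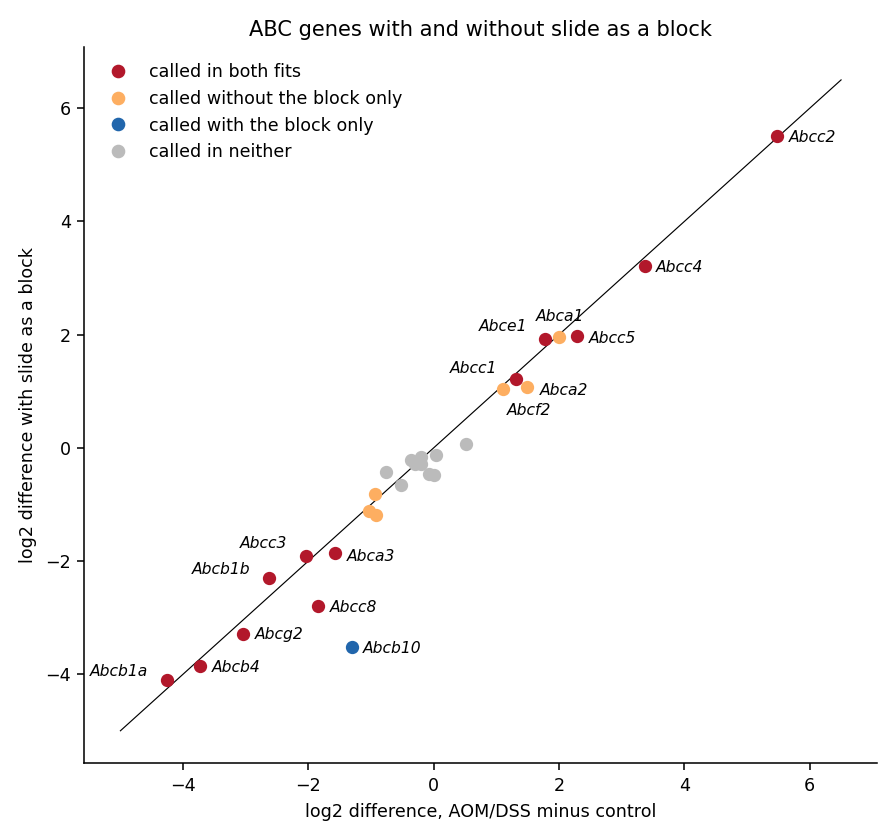
Log2 difference between AOM/DSS and control for 30 of the tested ABC genes without (horizontal axis) and with (vertical axis) slide as a block in the fit; the line marks equality. Colours show in which fit a gene was called, and the 3 unlabelled orange points are Abca7, Abcb6 and Abcg4. The 12 red genes were called in both fits, and Abcb10, dim on AOM/DSS replicate 3, moves to -3.53 with the block.

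Markers of several cell types moved with the same groups. Of 12 markers of absorptive colonocytes 10 fell in AOM/DSS against control, and their summed signal was 141 to 152 on AOM/DSS arrays, 395 to 850.3 on AOM, 639 to 1059 on DSS and 764 to 1556 on control arrays. Alpi, a brush border phosphatase among them, was well above background on no AOM/DSS array. All 8 goblet cell markers fell, with sums of 70.9 to 356 on AOM/DSS, 1541 to 2435 on AOM, 1878 to 3403 on DSS and 2344 to 3636 on control arrays. Of 6 general epithelial markers 4 fell, with sums of 609 to 727 on AOM/DSS, 1353 to 1611 on AOM, 1161 to 2127 on DSS and 1025 to 1812 on control arrays.

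Markers of crypt cells and Wnt targets rose for 6 of 7, with sums of 22.4 to 31.3 on AOM/DSS, 13.1 to 25.4 on AOM, 7.71 to 12.4 on DSS and 7.24 to 9.44 on control arrays. All 6 neutrophil markers tested rose, with sums of 64.6 to 207 on AOM/DSS, 8.05 to 20.5 on AOM, 1.91 to 21.2 on DSS and 0.394 to 2.00 on control arrays; Csf3r, Cxcr2, Mmp9 and Ngp were well above background on no control array. Macrophage markers rose for 4 of 6, fibroblast markers for 4 of 8, endothelial markers for 2 of 8, smooth muscle markers for 1 of 8 and mast cell markers for 1 of 6. Exocrine pancreas markers fell for 6 of 7, B and plasma cell markers for 3 of 6, neuron and glia markers for 2 of 3, adipocyte markers for 1 of 2 and T cell markers for 0 of 6, while tuft cell markers rose for 1 and fell for 2 of 4. Control arrays also differed among themselves: fibroblast sums were 139.6 to 188 on AOM/DSS and 13.3 to 151 on control arrays, and pancreatic sums 2.46 to 3.45 on AOM/DSS and 14.2 to 669 on control arrays. The part of these cell types in the ABC differences was not tested. Without control replicates 1 and 2, the arrays low in fibroblast and endothelial markers, the single control array left was assumed to vary as the other groups do, and 6 members were called in AOM/DSS against control, against 8.44% of all genes: Abcb1a, Abcb1b, Abcb4, Abcg2, Abcc2 and Abcc4.

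The known regulators and partners of the family were listed separately. Of 13 tested transcription factors known to regulate ABC genes, 9 fell and 1 rose in AOM/DSS against control, with a list median of -1.55. Ppara, a fatty acid sensor, differed by -2.74 ± 0.38 (SE, adjusted p = 0.00051), Nr1i2 (the pregnane X receptor, a xenobiotic sensor that induces Abcb1a) by -2.63 ± 0.25 (adjusted p = 6.57e-05) and Hnf4a, an epithelial factor of liver and gut, by -2.01 ± 0.26 (adjusted p = 0.000397). Ahr, the aryl hydrocarbon receptor, was the riser, at 0.86 ± 0.26 (adjusted p = 0.0264). The median of the 14 tested peroxisomal assembly and fatty acid oxidation genes was -1.08, and 8 fell, led by Acaa1b and Acaa1a, enzymes of peroxisomal fatty acid oxidation, at -1.77 ± 0.27 and -1.55 ± 0.31 (SE).

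Of 19 genes of mitochondrial iron-sulfur and haem synthesis 2 rose, Uros among them, and 2 fell (Slc25a39 and Isca1), with a median of 0.02. Of 11 translation factors 3 rose, namely Eif2s1 at 1.17 ± 0.28, Eif2b1 at 0.77 ± 0.27 and Gspt1, a termination factor, at 0.76 ± 0.23, and none fell. Of 11 sterol and lipoprotein genes tested, Apoe rose by 1.92 ± 0.63, while Apob, well above background on no AOM/DSS array, was at least 32.5-fold lower and Npc2 fell by 1.14 on the log2 scale. Of 3 bile salt genes tested, Slc51b, a subunit of the basolateral bile salt exporter, fell by 3.42 on the log2 scale (SE 0.50, adjusted p = 0.000708). Of the 3 ABC genes with other symbols, the chloride channel Cftr differed by -1.32 ± 0.45 (SE, adjusted p = 0.0429) with overlapping groups and the peptide transporter subunit Tap2 by -0.89 ± 0.28 (adjusted p = 0.0309), and its partner Tap1 did not pass, at -0.04 ± 0.27.

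In AOM against control epithelium, 5 of 32 members rose and 5 fell, and 22 did not pass. Among all genes tested 14.8% rose and 17.6% fell, and among genes with a symbol 18.0% rose and 12.7% fell, so the members' 15.6% in each direction lay near the background; the members' median was -0.07 and that of all genes -0.01. The control arrays are those of the comparison with AOM/DSS. None of the 10 called members overlapped between the groups, nor did 96.4% of all genes called. The members that fell were Abcb1a, Abcb4, Abcb1b and Abcg2, whose values are given above, and Abca5. For Abcb1a, AOM minus control was -2.46 ± 0.35 (SE, adjusted p = 0.00397). Abcb4 differed by -1.78 ± 0.29 (adjusted p = 0.00557), Abcb1b by -1.71 ± 0.26 (adjusted p = 0.00487) and Abcg2 by -1.24 ± 0.28 (SE, adjusted p = 0.0128). Abca5 stood at -2.45, -1.59 and -2.60 in AOM/DSS, -3.68, -2.77 and -3.02 in AOM, -2.81, -3.28 and -2.86 in DSS and -2.55, -2.26 and -1.62 in control. For Abca5, AOM minus control was -1.02 ± 0.35 (SE, adjusted p = 0.0484), and the call was lost in 20 of 25 alternatives.

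The members that rose were Abcc4 at 1.84 ± 0.49 (adjusted p = 0.0203), Abcc5 at 1.64 ± 0.36 (adjusted p = 0.0117), Abca2 at 1.49 ± 0.30 (adjusted p = 0.00955), Abcf2 at 1.44 ± 0.27 (adjusted p = 0.00751) and Abcc1 at 0.67 ± 0.21 (SE, adjusted p = 0.0326). The other Abcc1 probes gave smaller differences, 0.26 and 0.40. The Abcc1 call was lost in 11 of 25 alternatives, among them the mean of passing probes (0.44, adjusted p = 0.123). Both efflux directions were present, with 3 of 8 tested exporters of drugs and conjugates up and 3 down. Abcc2 did not pass (adjusted p = 0.165), and no control array had it above background. Without AOM replicate 1, which was dim, it was called (adjusted p = 0.0239), at least 1.81-fold higher in AOM. Without control replicate 3, Abca1 passed at 1.25 (adjusted p = 0.028), Abcb11, dim on every control array, at an adjusted p of 0.0224 and Abcf3 at -0.65 (adjusted p = 0.0471).

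AOM and control arrays shared no slide, and with slide as a block none of the 10 was called and 0.0211% of all genes were; Abcb1a, for example, was then -2.41 (adjusted p = 0.249). Leaving out single AOM or control arrays ended the calls of Abcc4 (without AOM replicate 2 or 3 or control replicate 1) and Abcc1 (without AOM replicate 2 or 3 or control replicate 1 or 2), and without control replicates 1 and 2 together no member was called, against 0.0792% of all genes. With normexp correction Abca2 was at 0.36 (adjusted p = 0.503), Abcc5 at 0.59 (adjusted p = 0.218) and Abcg2 at -0.71 (adjusted p = 0.151), and Abcb1a, Abcb1b and Abcf2 kept their calls. Of the regulators 4 of 13 fell, led by Nr1i3 at -2.55 ± 0.52, Ppargc1a at -2.52 ± 0.35 and Ppara at -1.87 ± 0.38 (SE), and none rose. Of the sterol genes 6 of 11 rose and none fell, among them Pltp at 2.70 ± 0.94 (with overlapping groups), Apoe at 2.39 ± 0.63 (SE) and Soat2, which was well above background on no control array. Of the peroxisomal genes 3 of 14 fell, and of the iron-sulfur and haem genes 4 of 19 rose. Colonocyte markers fell for 4 of 12, exocrine pancreas markers for 3 of 7 and neuron and glia markers for 1 of 3. Neutrophil and macrophage markers each rose for 5 of 6, endothelial markers for 4 of 8 and crypt markers for 3 of 7. Fibroblast markers rose for 3 of 8, mast cell markers for 3 of 6, smooth muscle markers for 1 of 8 and enteroendocrine markers for 1 of 7. Of 4 tuft cell markers 1 rose and 1 fell. The part of these cell types was not tested.

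In DSS against control epithelium, limma called 0 of the 32 members, against 0.164% of all genes higher and 0.164% lower. The DSS and control arrays shared no slide, so slide and DSS treatment cannot be told apart in this comparison. At an unadjusted p under 0.05 there were 9 members, 4 higher and 5 lower, and at that threshold 10.5% of all genes were higher and 10.6% lower. The smallest p was that of Abcb11. Levels of Abcb11 were -5.81, -5.14 and -4.98 on AOM/DSS arrays, -4.13, -3.39 and -3.63 on AOM, -3.04, -2.38 and -2.36 on DSS and -4.79, -5.17 and -3.70 on control arrays. It was well above background on all DSS and AOM arrays and on no AOM/DSS or control array. DSS minus control was 1.96 ± 0.40 (SE, adjusted p = 0.0706), which did not pass although DSS was at least 2.32-fold above control by the detection limit. It passed without control replicate 3 (adjusted p = 0.0035) and without DSS replicate 1 (adjusted p = 0.0115). These 2 arrays had the highest pancreatic marker sums, and the part of that signal was not tested. No gene of the regulator and partner lists passed in DSS against control.

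Without both of those arrays, 22.6% of all genes were called, and 5 of 32 members, a smaller share, passed: Abcb11 (dim on every control array), Abcc5 at 1.53, Abca2 at 1.25 and Abcf2 at 0.92 were higher in DSS, and Abcg5 at -2.07 was lower. With all arrays, Abcb1a differed by -1.26 ± 0.35 (SE, 95% interval -2.04 to -0.49, adjusted p = 0.128), Abcb4 by -0.84 ± 0.29 (interval -1.48 to -0.19, adjusted p = 0.173) and Abcb1b by -0.79 ± 0.26 (interval -1.36 to -0.21, adjusted p = 0.161), and none of them passed. For Abcg2 the interval was -0.80 to 0.44 and for Abcc3 -0.84 to 0.81, which include changes in either direction.

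Set against AOM epithelium, AOM/DSS neoplasms had 5 members higher and 10 lower, with 17 not passing; 19.5% of all genes rose and 17.7% fell, and of genes with a symbol 12.5% rose and 20.9% fell. Both groups are the arrays that were set against control. The largest rise was in Abcc2, where AOM/DSS minus AOM was 4.18 ± 0.70 (SE, adjusted p = 0.00372). It was followed by Abce1 at 1.82 ± 0.37 (adjusted p = 0.00761), Abcc4 at 1.52 ± 0.49 (adjusted p = 0.0338) and Abca1 at 1.32 ± 0.46 (SE, adjusted p = 0.0464), and Abcc1 also rose. The second Abce1 probe stood at 0.48 in AOM/DSS and -0.12 in AOM against control, so the size of this rise depended on the probe too. The largest falls were in Abcc8 at -2.36 ± 0.43 (adjusted p = 0.00529), Abcb4 at -1.94 ± 0.29 (adjusted p = 0.00251), Abcg2 at -1.80 ± 0.28 (adjusted p = 0.00298) and Abcb1a at -1.79 ± 0.35 (SE, adjusted p = 0.00654). Among the others that fell were Abcc3, Abcb11 (by at least 2.48-fold), Abca3, Abcb1b and Abcb6.

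Among 25 alternatives, the calls of Abcb1a, Abcb4, Abce1 and Abcg2 between AOM/DSS and AOM held in every one. The call of Abca1 was lost in 14 of them, that of Abcc1 in 11, that of Abcb6 in 7, that of Abcc4 in 6 and that of Abcb1b in 5; leaving out any 1 AOM or AOM/DSS array ended that of Abca1, and without AOM replicate 1 Abcc4 was at 0.98 (adjusted p = 0.11). Slide 1 held replicates 1 and 2 of both groups, and there Abcb1a differed by -1.69, Abcb4 by -1.92, Abcg2 by -1.82 and Abce1 by 2.01, with signs fixed by the lack of overlap. With the block 8 members were called, against 14.9% of all genes, and without AOM/DSS replicate 1 there were 9, against 17.8% of all genes. With normexp correction Abcc2 was at 2.69 and did not pass (adjusted p = 0.0528). The calls of Abcc8, Abcc3, Abca3, Abcb11, Abcb1b, Abcb6, Abcc1 and Abca1 were also among those lost with it. Over all genes 510 then rose and 738 fell.

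Set against DSS epithelium, AOM/DSS neoplasms had 6 members higher and 12 lower, with 14 not passing; 17.6% of all genes rose and 18.3% fell, and of genes with a symbol 16.4% rose and 20.8% fell. Abcc2 rose by at least 20.8-fold (log2 difference 6.46 ± 0.70, adjusted p = 0.000268), and Abcc4 by 3.09 ± 0.49 (adjusted p = 0.00179), Abce1 by 1.98 ± 0.37 (adjusted p = 0.00391) and Abca1 by 1.45 ± 0.46 (SE, adjusted p = 0.0342). Abcc1 and Abcc5 rose as well. For Abce1 the size again depended on the probe, as its second probe stood at 0.48 in AOM/DSS and -0.32 in DSS against control. The largest falls were in Abcb1a at -2.99 ± 0.35 (adjusted p = 0.000395), Abcb4 at -2.89 ± 0.29 (adjusted p = 0.000208), Abcg2 at -2.85 ± 0.28 (adjusted p = 0.000187) and Abcc8 at -2.73 ± 0.43 (SE, adjusted p = 0.00178). The others that fell included Abcb11 (at least 5.41-fold lower), Abcc3, Abcb1b, Abcg4, Abca3, Abcb6 and Abca7. These groups shared no slide, and with slide as a block 3 members were called, against 2.31% of all genes. The call of Abca7 was lost in 12 of 25 alternatives, that of Abcc5 in 11 (at 0.42 with the slide block; each AOM/DSS array left out ended it) and that of Abca1 in 7. Abcb4 and Abcg2 were called in all 25 alternatives, and with normexp correction Abcc2 was at 2.43 and did not pass (adjusted p = 0.0598). The calls of Abca7, Abcb6 and Abcc5 were also among those lost with that correction.

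Between DSS and AOM epithelium, limma called 0 of 32 members, against 0% of all genes higher and 0.0106% lower. At an unadjusted p under 0.05 there were 11, 6 higher in DSS and 5 lower, and at that threshold 6.17% of all genes were higher and 8.65% lower. Among these were Abcc4 at -1.57 ± 0.49 (SE, 95% interval -2.65 to -0.49, adjusted p = 0.214) and Abcb1a at 1.20 ± 0.35 (interval 0.42 to 1.97, adjusted p = 0.196). Abcc2 (adjusted p = 0.208) was well above background on no DSS array, so its difference has only a bound, at least 1.15-fold lower in DSS. Without AOM replicate 1, Abcc4 passed at -2.11 (adjusted p = 0.0374) and Abcc2 was called (adjusted p = 0.0196), at least 2.08-fold lower in DSS.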

How the data were processed

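The deposited arrays are 12 Agilent one-colour scanner files, 3 per group, made with Agilent Feature Extraction (version 10.7.3.1 in the file headers, 10.7 in the submitters' processing notes). The deposited intensity values are that program's processed signal on a linear scale, per the file headers, with no statement of how it was corrected for background. The authors also deposited a table of log2 values, whose sorted columns equal each other within 0.000945, as after quantile normalization; it was used as an alternative. Here log2 processed signal minus each array's 75th percentile was used. Control spots and outlier spots were left out, and no spot was saturated. The 75th percentile was an intensity of 1115 to 1185 on AOM/DSS and 393 to 694 on the other arrays. The share of probes well above background was 62.6% to 66.2% on AOM/DSS and 52.0% to 59.3% on the other arrays. AOM/DSS arrays were thus brighter and had more probes flagged, and the part of this in detection differences between groups was not tested. The number of arrays limits the precision.

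Of 41174 non-control probes, 27190 had a symbol through their RefSeq accession (18535 genes); the others were fitted by accession. The brightest probe that passed the filter stood for a gene. Groups were compared with limma 3.58.1 in R 4.3.3 (lmFit and eBayes over all 12 arrays, 8 residual and 2.64 prior degrees of freedom), with Benjamini-Hochberg adjustment over 18950 genes. The p-values measure the spread between these arrays, which may be technical. The fit was tested on simulated data.

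The members, roles and lists were chosen with earlier results of these data known. Values on every array are given for a panel of members and for the called members with the largest changes against control, up to 6 each way; comparisons without control name up to 4 each way, and lists up to 3 called genes. A few members and partner genes enter the fits and counts but are not reported here, nor drawn. Alternatives were normexp correction with an offset of 50, median, quantile and the authors' scaling, other filters and probe rules, named genes only, the slide or the replicate number as a block, only the 2 groups compared, and leaving out arrays.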

Additional observations from a re-analysis of the deposited data

How the results depend on the processing

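No member reversed its direction where it was called. Of 4764 values of single members recomputed under the alternatives, 4511 kept direction and side of the threshold, 205 lost a call and 48 gained one. With normexp correction, 3 members were called in AOM against control and 5 in AOM/DSS against AOM. Over all genes, 1058 then rose and 796 fell in AOM against control, against 2802 and 3334 in the main fit. In AOM/DSS against AOM, 510 rose and 738 fell, against 3689 and 3351 in the main fit. With named genes alone, 1 was called in DSS against control, where 71 of all named genes were higher and 53 lower. With slide as a block, 0 were called in AOM against control, 8 in AOM/DSS against AOM and 3 in AOM/DSS against DSS. The shares of all genes called, in that order, were 0.0211%, 14.9% and 2.31%. Without the arrays high in pancreatic markers, 5 were called in DSS against control, and without the controls low in stromal markers, 6 in AOM/DSS against control and 0 in AOM against control. For the arrays left out by their markers, the shares of all genes called are given above with each comparison. The cause of these shifts was not tested, except that leaving out arrays also leaves fewer samples. Leaving out single arrays gave counts of 15 to 19 in AOM/DSS against control, 7 to 12 in AOM against control, 0 to 3 in DSS against control, 9 to 16 in AOM/DSS against AOM, 14 to 19 in AOM/DSS against DSS and 0 to 2 between DSS and AOM. The higher and lower counts over all genes moved too. Without AOM/DSS replicate 1 they were 2306 and 2377 in AOM/DSS against control, and 1757 and 1611 in AOM/DSS against AOM. Without AOM replicate 2 they were 911 and 1054 in AOM against control. Without DSS replicate 3 they were 1571 and 1747 in AOM/DSS against DSS. Without DSS replicate 1 they were 1011 and 2176 in DSS against control. Without AOM replicate 1 they were 28 and 291 in DSS against AOM. With the replicate block the member counts, in the same order, were 18, 8, 0, 13, 16 and 0. For the first 3 of these comparisons, the higher and lower counts over all genes were 3093 and 3079, 2592 and 3418, and 23 and 17. For the last 3 they were 3754 and 3003, 3435 and 3085, and 0 and 0. Same-numbered arrays of different groups had deviations that correlated between -0.27 and 0.25, with a median of 0.08. Differently numbered arrays had correlations of -0.26 to 0.38, with a median of -0.08. Whether the numbers pair the arrays was not tested. Scaling to the median shifted the median of all genes to -0.12 in AOM/DSS against control, 0.16 in AOM against control, -0.36 in AOM/DSS against AOM and -0.18 in AOM/DSS against DSS; the higher and lower counts over all genes were then 2523 and 4970 in AOM/DSS against AOM (3689 and 3351 by the 75th percentile) and 2223 and 4093 in AOM/DSS against DSS (3343 and 3461). Dim probes bound what the arrays can show: Abcc2, Abcb11 and Abcc8 lacked the detection flag on 1 or more arrays of a group in each comparison that called them. Abcg4 lacked it on a control array in its call against control.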
